A study of Mus musculus with 10 samples.

Results

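The 10 genes described here are the core circadian clock genes Bmal1, Clock, Per1, Per2, Per3, Cry1, Cry2, Dbp, Nr1d1 and Nr1d2. They were found in the count table by symbol, after its Ensembl identifiers had been named by the GENCODE M39 annotation of the mouse genome build GRCm39, and all 10 passed the filter on low counts. They are 10 of the 13451 genes tested and of the 57185 genes with counts.

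The circadian clock is a loop of transcription that runs in nearly every cell, cardiomyocytes and fibroblasts included, with a period of about a day. BMAL1 and CLOCK form a pair of transcription factors that bind E-box sequences and switch on the genes of their own repressors, PER and CRY, and the genes of the nuclear receptors REV-ERBα (Nr1d1) and REV-ERBβ (Nr1d2), which in turn repress Bmal1 through ROR elements. DBP, whose gene is also driven through E-boxes, carries the rhythm to further genes by binding D-boxes, so that in a normal mouse heart Bmal1 transcripts peak at the opposite time of day to those of Dbp, Nr1d1 and Per3.

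Bulk RNA-seq was done on the apical part of the ventricle, labelled left ventricle, of 5 MLPKO and 5 cRADΔ/Δ-MLPKO male mice with 1 library per mouse, and the comparison asked what the loss of RAD, an inhibitor of the cardiac L-type calcium channel encoded by Rrad, did to gene expression in a failing heart. All 10 mice were labelled as knockouts of muscle LIM protein (MLP, encoded by Csrp3), whose loss gives dilated cardiomyopathy, and carried floxed Rrad alleles. The cRADΔ/Δ-MLPKO mice also carried MYH6-MerCreMer, a recombinase made in cardiomyocytes and switched on by tamoxifen, whereas the MLPKO mice carried no Cre. Every mouse received tamoxifen at 100 mg/kg at 10 weeks of age, hearts were collected 1 month later, and the labels give the age as 16 weeks. Since the MLPKO mice had no Cre, loss of RAD and presence of the recombinase cannot be told apart, and no mouse with normal MLP was analysed here. The hour of collection is not given in the sources used here, and a clock gene was measured at 1 moment in each mouse.

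Total counts ranged from 33457406 to 49965101 per library, and the 10 clock genes had between 88 counts (Per2) and 5435 counts (Nr1d1) in a library. Rrad, targeted only in cardiomyocytes, stood at 140 to 282 CPM (counts per 1000000 counts of the genes tested, after scaling) in MLPKO and 135 to 202 CPM in cRADΔ/Δ-MLPKO (log2 fold change -0.38 ± 0.20 (SE), edgeR adjusted p = 0.29), so the counts of this gene did not separate the genotypes. The paper reported loss of RAD protein in cRADΔ/Δ-MLPKO hearts by western blot, and RNA counts over the whole gene do not check that loss. Csrp3 still had counts in every library, at 1010 to 3260 CPM in MLPKO and 691 to 1180 CPM in cRADΔ/Δ-MLPKO (log2 fold change -1.08 ± 0.29 (SE), edgeR adjusted p = 0.0666), so counts over the whole gene, with no mouse of normal MLP beside them, do not check its knockout. In a principal component analysis, MLPKO mouse 2 lay at -55.7 on the first component, which held 35.3% of the variance, and the other 9 mice lay between -22.5 and 24.0. By genotype, the cRADΔ/Δ-MLPKO mice lay between 3.04 and 24.0 and the MLPKO mice between -55.7 and 11.2. Heart muscle markers were abundant in every library, with 36100 to 55900 CPM summed over 6 genes.

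No clock gene passed the test between cRADΔ/Δ-MLPKO and MLPKO. Of the 10 genes, 0 had an adjusted p under 0.05 in the edgeR quasi-likelihood test with Benjamini-Hochberg adjustment, against 2.74% of all genes tested (0.944% higher and 1.8% lower in cRADΔ/Δ-MLPKO). When the log2 fold change also had to reach 0.5 in size, 1.25% of all genes were called. An unadjusted p under 0.05 was reached by 0 of the 10 genes and by 21.6% of all genes, and DESeq2 called 0 of the 10 and 10.1% of the genes to which it gave an adjusted p. The CPM values of the genotypes overlapped for every clock gene, whereas they did not overlap for 6.62% of all genes. The estimated log2 fold change was above 0 for 5 genes and below 0 for 5, with a median of -0.01 beside 0.01 over all genes. A missed threshold does not show equal levels, and the 95% confidence intervals in the plot of genotype differences give the sizes that the data allow.

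**Figure D1:**
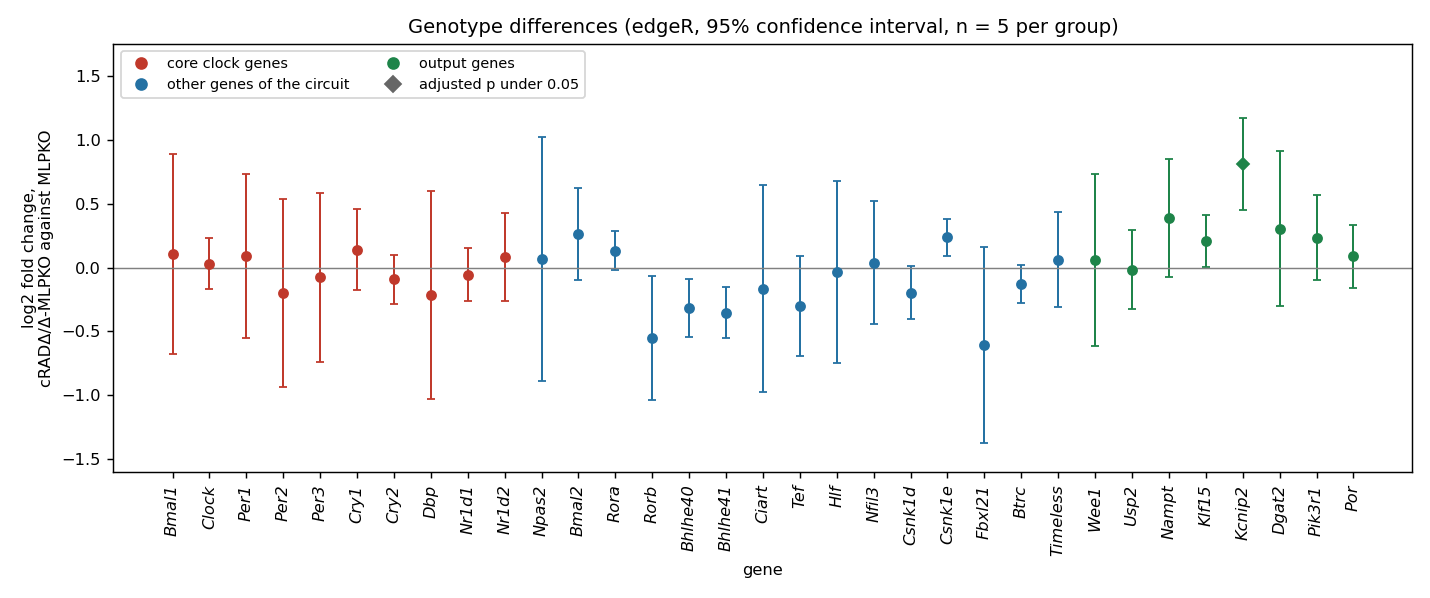
Estimated log2 fold change of cRADΔ/Δ-MLPKO against MLPKO on the vertical axis for the 10 core clock genes (red), 15 other genes of the clock circuit (blue) and 8 genes that follow the clock (green), with bars for the 95% confidence interval of the edgeR fit (n = 5 mice per group). The intervals of all 10 core genes include 0 and are widest for Dbp and Bmal1, and the diamond marks Kcnip2, the gene with an adjusted p under 0.05.

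Bmal1 encodes the clock's rhythmic activator. Its transcripts stood at 10.5, 17.3, 7.17, 4.13 and 12.0 CPM in MLPKO mice 1 to 5 and at 16.5, 9.76, 15.0, 6.88 and 6.90 CPM in cRADΔ/Δ-MLPKO mice 1 to 5. High and low mice occurred in both genotypes, and the highest mouse, MLPKO mouse 2, had 4.19 times the CPM of the lowest, MLPKO mouse 4. The group means were 10.2 ± 5.00 CPM in MLPKO and 11.01 ± 4.53 CPM in cRADΔ/Δ-MLPKO (SD, n = 5 each), with a log2 fold change of 0.11 ± 0.36 (SE) and an edgeR adjusted p of 0.9. The 95% interval ran from 0.627 to 1.85 times the MLPKO level, so a change of either sign within that range would not have been told from 0. Bmal1 lies on the plus strand of chromosome 7 (chr7:112806152-112914735).

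Clock encodes the partner of BMAL1, whose transcript level varies little through the day in most tissues. MLPKO mice had 55.9, 62.8, 51.8, 44.3 and 62.4 CPM and cRADΔ/Δ-MLPKO mice had 59.7, 58.5, 58.2, 52.8 and 53.4 CPM. The spread was narrow, with 1.42-fold between the highest and the lowest mouse, and MLPKO mice 2 and 4 were again the ends of the range. The log2 fold change was 0.03 ± 0.09 (SE), with an edgeR adjusted p of 0.896 and a 95% interval from 0.888 to 1.17 times the MLPKO level. The gene lies on the minus strand (chr5:76342860-76452846), and 11.87% of its exon length overlaps Tmem165 on the other strand.

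**Figure D2:**
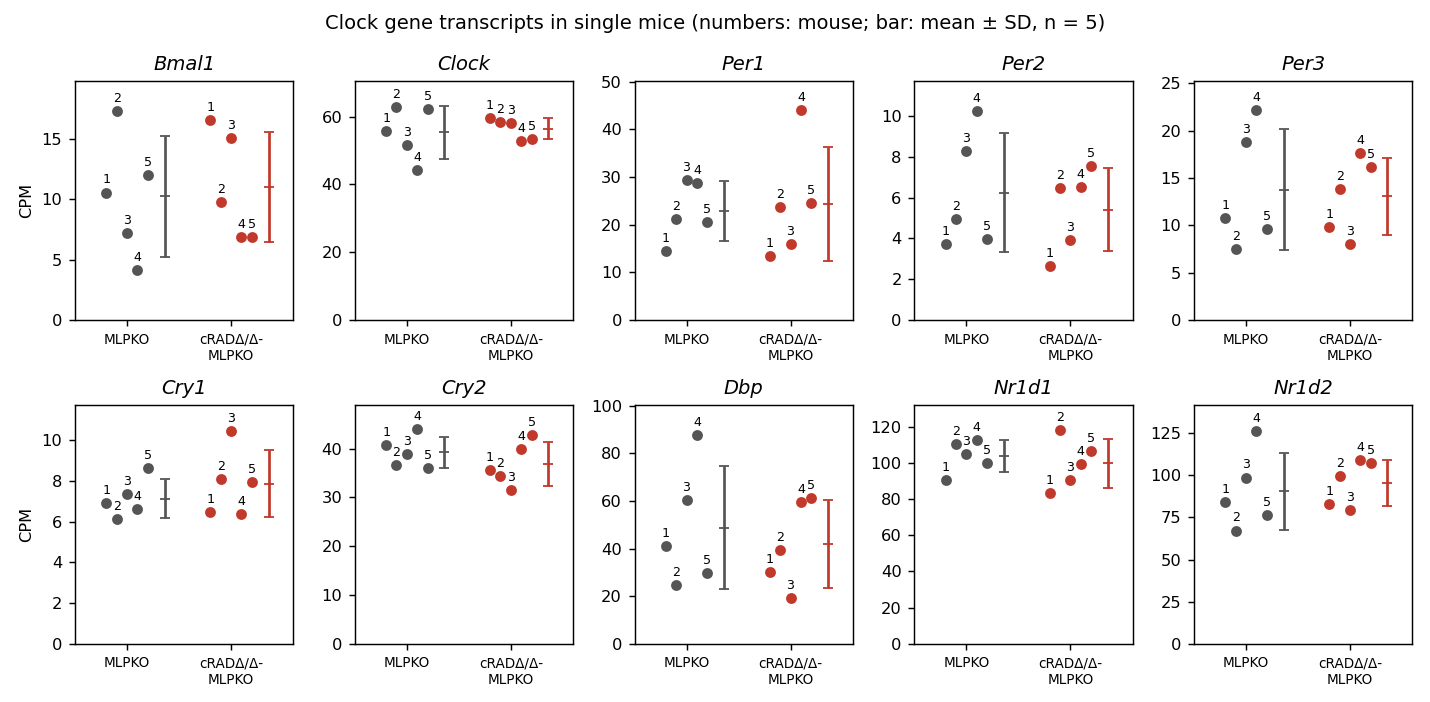
CPM of each of the 10 clock genes on the vertical axis (each panel starts at 0), with 1 point per mouse, numbered within its genotype (MLPKO grey, cRADΔ/Δ-MLPKO red) and a bar for the mean ± SD of 5 mice. The genotypes overlap in every panel, and MLPKO mouse 4 is lowest for Bmal1 and Clock and highest for Per2, Per3, Cry2, Dbp and Nr1d2.

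The promoters of 5 genes are shown, those of the Period genes and Cry1 for their matches to the E-box, its variant or the D-box, and that of Dbp, the clock gene with the highest dispersion between mice, for its match to the ROR element. Each window runs from 250 bases before the start site of the gene's canonical GENCODE transcript to 50 bases from it on, in GRCm39 and on the strand of the gene. Capitals mark an exact match on either strand to an E-box (CACGTG), an E-box variant (CACGTT, or AACGTG on the other strand), a D-box (TTATGTAA or TTACGTAA) or a ROR element (GGTCA preceded by AANTN, where N is any base).
Per1 promoter, chr11:68989018-68989317, plus strand: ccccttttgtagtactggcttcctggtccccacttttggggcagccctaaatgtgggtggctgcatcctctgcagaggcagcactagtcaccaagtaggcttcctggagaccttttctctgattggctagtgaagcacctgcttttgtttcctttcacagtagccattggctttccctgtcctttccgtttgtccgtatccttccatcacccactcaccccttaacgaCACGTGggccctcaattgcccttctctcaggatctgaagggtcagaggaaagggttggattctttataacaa
Per2 promoter, chr1:91386997-91387296, minus strand: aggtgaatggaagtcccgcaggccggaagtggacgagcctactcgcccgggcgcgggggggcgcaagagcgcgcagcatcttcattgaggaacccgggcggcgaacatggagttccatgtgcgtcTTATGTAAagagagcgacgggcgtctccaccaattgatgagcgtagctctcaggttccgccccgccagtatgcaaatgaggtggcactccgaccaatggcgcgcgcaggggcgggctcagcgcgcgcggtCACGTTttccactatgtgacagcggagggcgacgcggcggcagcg
Per3 promoter, chr4:151129091-151129390, minus strand: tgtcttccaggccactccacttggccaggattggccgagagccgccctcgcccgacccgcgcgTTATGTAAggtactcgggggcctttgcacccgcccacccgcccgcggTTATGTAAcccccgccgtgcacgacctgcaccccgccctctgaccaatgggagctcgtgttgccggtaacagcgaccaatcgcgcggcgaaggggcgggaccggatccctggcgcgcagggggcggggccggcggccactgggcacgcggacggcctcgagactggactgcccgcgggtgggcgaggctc
Cry1 promoter, chr10:85020900-85021199, minus strand: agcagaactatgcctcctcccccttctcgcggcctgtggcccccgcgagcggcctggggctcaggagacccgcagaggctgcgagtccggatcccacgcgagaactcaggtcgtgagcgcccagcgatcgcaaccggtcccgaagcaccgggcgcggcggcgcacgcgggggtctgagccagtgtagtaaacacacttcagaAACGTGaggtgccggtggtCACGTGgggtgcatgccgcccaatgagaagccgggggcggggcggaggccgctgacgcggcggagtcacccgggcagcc
Dbp promoter, chr7:45354262-45354561, plus strand: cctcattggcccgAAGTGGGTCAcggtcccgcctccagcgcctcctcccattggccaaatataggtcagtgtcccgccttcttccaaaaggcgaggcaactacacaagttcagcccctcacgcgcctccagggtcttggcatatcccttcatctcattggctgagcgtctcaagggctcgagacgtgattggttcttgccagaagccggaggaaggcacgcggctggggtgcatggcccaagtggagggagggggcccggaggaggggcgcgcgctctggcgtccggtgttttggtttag

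Per1 held an E-box that starts 22 bases before the start site, and Cry1 an E-box 29 bases and a variant 48 bases before it. Per2 held a D-box 125 bases before the start site and a variant that begins 5 bases after it, and Per3 held D-boxes 187 and 140 bases before its start site. In Dbp the match was a ROR element 237 bases before the start site. Variants were also found in Cry2, 106 bases before the start site, and in Nr1d1, 72 bases before it, and the windows of Bmal1, Clock and Nr1d2 held none of these letters. An E-box was thus present in 2 of the 10 windows, the variant in 4, a D-box in 2 and a ROR element in 1. Of 21770 promoter windows of the same length, 7.81% held an E-box, 4.99% the variant, 1.07% a D-box and 0.611% a ROR element. These matches describe the sequence and do not show binding. Sites outside the windows were not searched, so a window without a match does not show that the gene lacks the element.

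The 3 Period genes encode the PER proteins, which enter the nucleus with CRY and shut down BMAL1 and CLOCK. Per1, which is also induced directly by glucocorticoids and by cAMP signalling, stood at 14.5, 21.2, 29.4, 28.8 and 20.5 CPM in MLPKO mice and at 13.5, 23.7, 16.0, 44.0 and 24.5 CPM in cRADΔ/Δ-MLPKO mice. Mouse 4 of cRADΔ/Δ-MLPKO had the highest Per1 level and mouse 1 of the same genotype the lowest, 3.25-fold apart. The log2 fold change was 0.09 ± 0.29 (SE, edgeR adjusted p = 0.894), with an interval from 0.684 to 1.66 times the MLPKO level.

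Per2 was the scarcest of the Period transcripts, at 3.72, 4.94, 8.31, 10.3 and 3.95 CPM in MLPKO and 2.63, 6.47, 3.93, 6.50 and 7.53 CPM in cRADΔ/Δ-MLPKO. Its highest and lowest mice, MLPKO mouse 4 and cRADΔ/Δ-MLPKO mouse 1, were 3.90-fold apart. The log2 fold change was -0.20 ± 0.34 (SE, edgeR adjusted p = 0.787). Per3, a period gene that is dispensable for the rhythm but is strongly rhythmic in peripheral tissues, stood at 10.8, 7.51, 18.8, 22.2 and 9.64 CPM in MLPKO and 9.81, 13.8, 8.0, 17.6 and 16.1 CPM in cRADΔ/Δ-MLPKO. The order of the mice was nearly the reverse of that for Bmal1, with MLPKO mouse 4 highest and MLPKO mouse 2 lowest. The log2 fold change of Per3 was -0.07 ± 0.30 (SE, edgeR adjusted p = 0.919).

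Cry1 and Cry2 encode the cryptochromes, the main repressors of the BMAL1 and CLOCK pair. Cry1 stood at 6.94, 6.12, 7.34, 6.61 and 8.63 CPM in MLPKO and 6.46, 8.08, 10.5, 6.37 and 7.96 CPM in cRADΔ/Δ-MLPKO, with its highest value in cRADΔ/Δ-MLPKO mouse 3. The genotypes overlapped, with a log2 fold change of 0.14 ± 0.15 (SE, edgeR adjusted p = 0.628). Cry2 stood at 40.8, 36.6, 38.9, 43.9 and 36.1 CPM in MLPKO and 35.6, 34.4, 31.5, 40.0 and 42.7 CPM in cRADΔ/Δ-MLPKO. It was the steadiest of the 10 transcripts, with 1.40-fold between the extremes, and its log2 fold change was -0.09 ± 0.09 (SE, edgeR adjusted p = 0.595).

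Nr1d1 and Nr1d2 encode REV-ERBα and REV-ERBβ, the repressors of Bmal1. Nr1d1 stood at 90.5, 110.3, 105, 113 and 99.9 CPM in MLPKO and 83.3, 118, 90.6, 99.5 and 107 CPM in cRADΔ/Δ-MLPKO. Although REV-ERBα transcripts are known for a strong daily rhythm, the counts of Nr1d1 varied by only 1.42-fold between mice, and the log2 fold change was -0.06 ± 0.10 (SE, edgeR adjusted p = 0.787). Exons of Thra, the thyroid hormone receptor gene on the opposite strand of chromosome 11, cover 52.25% of the exon length of Nr1d1 (chr11:98658752-98666188), and whether counting used strand is not stated. Thra stood at 80.2 ± 4.26 CPM in MLPKO and 86.1 ± 6.88 CPM in cRADΔ/Δ-MLPKO (SD, n = 5 each), a level close to that of Nr1d1, and without strand the reads of both genes over that stretch cannot be told apart, so the narrow spread of Nr1d1 is uncertain.

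Nr1d2 has no such partner in its exons. It stood at 84.3, 67.3, 98.7, 126 and 76.4 CPM in MLPKO and 83.2, 99.8, 79.5, 109 and 107 CPM in cRADΔ/Δ-MLPKO. As with Per3, MLPKO mouse 4 was the highest and MLPKO mouse 2 the lowest, 1.88-fold apart. The log2 fold change was 0.08 ± 0.16 (SE, edgeR adjusted p = 0.815), with an interval from 0.834 to 1.34 times the MLPKO level.

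Dbp encodes a PAR bZIP transcription factor and is the classic output of the clock. It stood at 41.2, 24.6, 60.5, 87.9 and 29.7 CPM in MLPKO and 30.2, 39.4, 19.3, 59.5 and 61.3 CPM in cRADΔ/Δ-MLPKO. It was the most variable of the 10 transcripts, with 4.56-fold between MLPKO mouse 4 and cRADΔ/Δ-MLPKO mouse 3. Group means were 48.8 ± 25.9 CPM and 41.9 ± 18.3 CPM (SD, n = 5 each), a log2 fold change of -0.22 ± 0.37 (SE, edgeR adjusted p = 0.79) with an interval from 0.489 to 1.52 times the MLPKO level. Of its exon length, 15.53% overlaps Sphk2 on the other strand, which stood at 21.6 ± 2.11 CPM in MLPKO and 19.8 ± 1.54 CPM in cRADΔ/Δ-MLPKO.

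Set on a scale per exon length, the order of the mean levels over the 10 mice was led by Nr1d1 at 31.4 CPM per kb. Dbp followed at 13.1 and Nr1d2 at 10.3 CPM per kb, and their ranges over mice overlapped (5.55 to 25.3 against 7.43 to 13.9 CPM per kb). Cry2 at 4.43, Clock at 3.24 and Per1 at 3.08 CPM per kb formed the middle, where the ranges of Cry2 and Per1 and those of Clock and Per1 overlapped, and every value of Cry2 (3.67 to 5.11) lay just above every value of Clock (2.56 to 3.64). Cry1 at 1.51, Per3 at 1.28, Bmal1 at 0.918 and Per2 at 0.887 CPM per kb were the lowest, with ranges that overlapped between neighbours. The length is that of all annotated exons of a gene, which is longer than any transcript, and the value of Nr1d1 is subject to the overlap with Thra.

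Several of these genes varied more between mice than most genes. The dispersion of edgeR, which measures the variation between mice of a genotype beyond counting error, was higher for Dbp than for 95.3% of all genes tested, for Bmal1 than for 94.6%, for Per2 than for 93.3%, for Per3 than for 90.8% and for Per1 than for 89.8%. Nr1d2 exceeded 67.7% of genes and Cry1 64.3%, whereas Nr1d1 (42.1%), Clock (38.6%) and Cry2 (35.0%) lay below the middle. The median over the 10 genes was 78.8%, and it was 70.9% over the other circuit genes, 77.2% over the glucocorticoid genes, 84.7% over the temperature genes and 95.3% over the fasting genes described further on. The width of the intervals followed the same order, so that the data exclude less for Dbp and Bmal1 than for Clock and Cry2.

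The mice differed from each other in the balance between Bmal1 and its opposite genes. The log2 ratio of Dbp to Bmal1, each per exon length, was 3.70, 2.25, 4.82, 6.15 and 3.04 in MLPKO mice 1 to 5 and 2.61, 3.75, 2.10, 4.85 and 4.89 in cRADΔ/Δ-MLPKO mice 1 to 5. As a linear ratio it reached from 4.28 in cRADΔ/Δ-MLPKO mouse 3 to 70.9 in MLPKO mouse 4, and low, middle and high mice were present in both genotypes. Group means of the log2 ratio were 3.99 ± 1.53 and 3.64 ± 1.27 (SD, n = 5 each), which differ by less than either SD. A ratio within 1 library does not depend on how libraries were scaled to each other. The log2 ratio of Per3 to Bmal1 had the same highest mouse but another lowest one, and ran from -1.06 in MLPKO mouse 2 to 2.57 in MLPKO mouse 4, and that of Nr1d1 to Bmal1 ran from 4.17 in cRADΔ/Δ-MLPKO mouse 1 to 6.60 in MLPKO mouse 4.

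**Figure D3:**
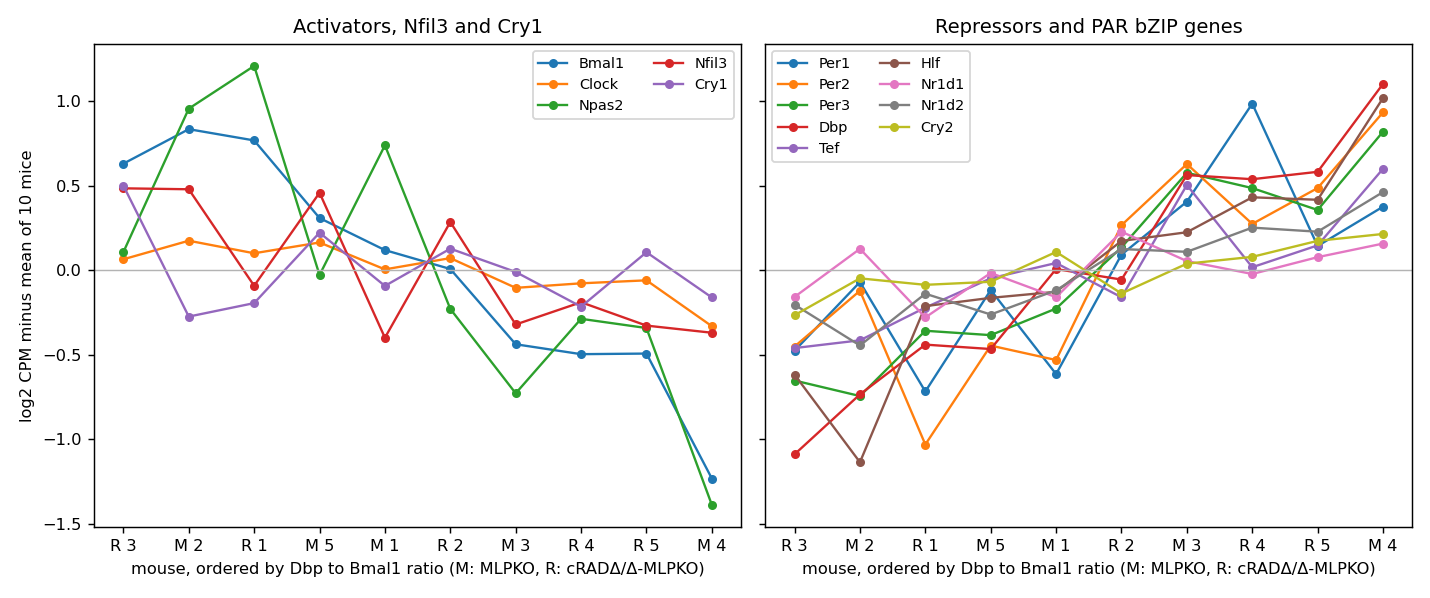
Log2 CPM of clock genes minus the mean of the 10 mice on the vertical axis, with the mice on the horizontal axis in the order of their Dbp to Bmal1 ratio (M, MLPKO; R, cRADΔ/Δ-MLPKO). Left: Bmal1, Clock, Npas2, Nfil3 and Cry1. Right: Per1 to Per3, Dbp, Tef, Hlf, Nr1d1, Nr1d2 and Cry2. The order was set by Bmal1 and Dbp themselves. Clock is lower and Per3, Nr1d2 and Hlf are higher in the mouse with the highest ratio (M 4) than in the mouse with the lowest (R 3), and the genotypes are mixed along the axis.

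Across mice the clock genes varied together or in opposition. Likeness was measured as Pearson's r of log2 CPM over the 10 mice after the mean of each genotype had been removed, and is a description without a test, since the values share a tissue, a scaling step and libraries of similar depth. Bmal1 and Clock had r = 0.92. Bmal1 ran opposite to Nr1d2 (r = -0.98), Per3 (-0.96), Dbp (-0.95), Per2 (-0.86), Cry2 (-0.78) and Per1 (-0.72), and less so to Nr1d1 (-0.48). Cry1, which peaks later in the day than the Period genes, followed neither side closely, with r = 0.15 to Bmal1, -0.38 to Dbp and -0.51 to Cry2. Among Per1, Per2, Per3, Dbp, Nr1d1 and Nr1d2, 15 of 15 pairs had a positive r, from 0.42 to 0.97 with a median of 0.79, and Per3 with Dbp and Per3 with Nr1d2 both reached 0.97.

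The opposition of Bmal1 and Dbp was seen within each genotype, with r = -0.98 over the 5 MLPKO mice and r = -0.91 over the 5 cRADΔ/Δ-MLPKO mice. Spearman's rho over the 10 mice was -0.93, and r was -0.92 without the 2 mice farthest from the median. Leaving out any single mouse kept r between -0.98 and -0.93. Pairs that involve Cry1 or Nr1d1 were less steady. Without the 2 farthest mice, r went from -0.38 to 0.11 for Cry1 with Dbp, from 0.42 to 0.16 for Dbp with Nr1d1 and from 0.23 to -0.05 for Cry2 with Nr1d1.

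**Figure D4:**
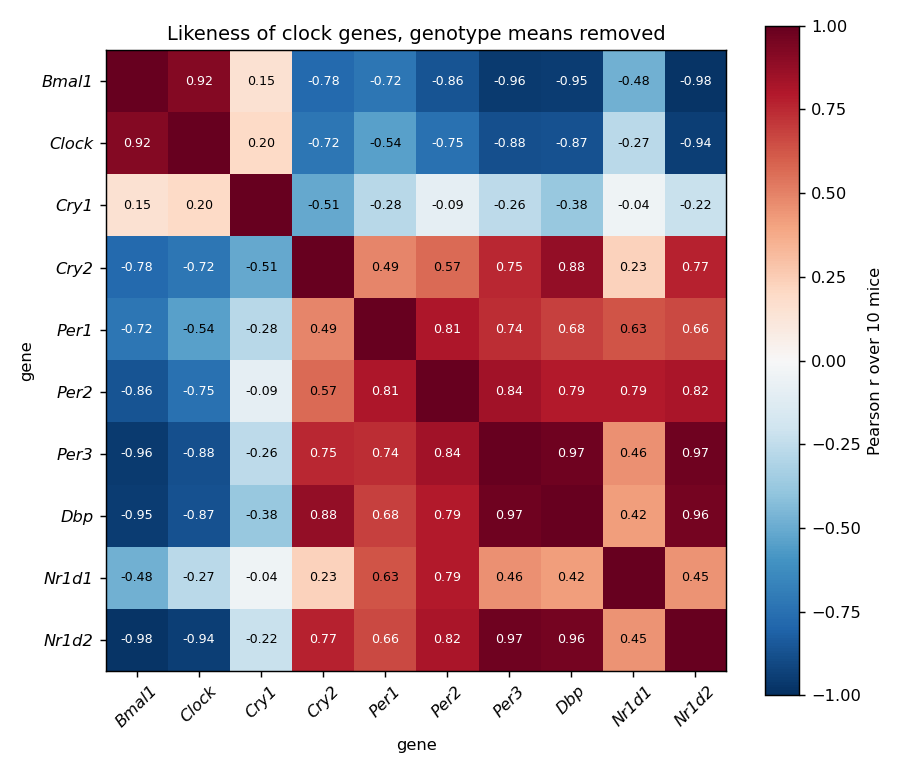
Pearson's r between each pair of the 10 clock genes over 10 mice, with genotype means removed (colour scale from -1, blue, to 1, red; the value stands in each cell). Bmal1 and Clock are positive to each other and negative to the Period genes, Cry2, Dbp, Nr1d1 and Nr1d2. The values of Cry1 run from -0.51 (with Cry2) to 0.20 (with Clock).

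Measured against every gene tested, some of the clock genes were among those most like or most opposite to Dbp or Bmal1. Of the other 13450 genes, Per3 had the highest r to Dbp (0.97), with Nr1d2 (0.96) at position 3, and Nr1d2 had the lowest r to Bmal1. In likeness to Dbp, Cry2 stood at position 52, Per2 at 284, Per1 at 782, Nr1d1 at 2765 and Cry1 at 10089. The 10 genes most like Dbp were Per3, Pex26, Nr1d2, Tomm20l, Gstm1, Arel1, Tef, Dsg2, Abhd13 and Hlf, with r from 0.93 to 0.97. Tef and Hlf encode the other PAR bZIP factors, and Pex26 is a protein of peroxisome assembly. With single mice left out, Nr1d2 stayed within the 3 lowest genes to Bmal1, the position of Per3 to Dbp lay between 1 and 6, and that of Nr1d2 to Dbp between 1 and 14 (14 without MLPKO mouse 2).

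The 10 genes most like Bmal1 were Anxa5, Lhfpl2, Ppp1r11, Magoh, Cdk5rap1, P4ha2, Adamts4, Creb3l1, Sgms2 and Myl6 (r from 0.95 to 0.98), none of which is a core clock gene, and Clock came at position 30. P4ha2 encodes a collagen prolyl hydroxylase and Adamts4 an extracellular matrix protease. Bmal1 had 110 genes with r of at least 0.9 in size (0.818% of the others) and Dbp had 54, where the median gene had 17 (0.126%), so a high r to Bmal1 was shared by many genes.

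Some other measures moved with the same axis of mice, and some did not. The fibroblast markers Col1a1, Dcn, Pdgfra, Tcf21, Lum and Postn summed to 971, 1375, 954, 920 and 1035 CPM in MLPKO mice 1 to 5 and to 1371, 1006, 1138, 756 and 914 CPM in cRADΔ/Δ-MLPKO mice 1 to 5. The mice with the highest Bmal1, MLPKO mouse 2 and cRADΔ/Δ-MLPKO mouse 1, also had the highest fibroblast sums. The log2 sum had r = 0.83 to Bmal1, -0.78 to Per3, -0.76 to Dbp and -0.76 to Nr1d2, and without MLPKO mouse 2 these were 0.76, -0.69, -0.68 and -0.66. The smooth muscle sum had r = 0.62 to Bmal1, -0.67 to Per3, -0.66 to Dbp and -0.59 to Nr1d2, or 0.45, -0.53, -0.55 and -0.40 without MLPKO mouse 2. The total count had r = -0.46 to Bmal1 and 0.51 to Per3, or -0.23 and 0.31 without MLPKO mouse 2. The cardiomyocyte sum had r = 0.10 to Bmal1 and 0.04 to Dbp, or -0.10 and 0.23 without that mouse. For the macrophage sum, r was -0.12 to Bmal1 and -0.02 to Dbp, or -0.06 and -0.09 without that mouse. For the endothelial sum, r was 0.24 to Bmal1 and -0.42 to Dbp, or 0.04 and -0.29 without that mouse. With genotype means removed, the first principal component had r = -0.79 to Bmal1, -0.84 to Clock, 0.67 to Dbp and 0.79 to Nr1d2. Without MLPKO mouse 2 these were -0.75, -0.89, 0.58 and 0.72. In bulk tissue, fewer cells of a type and less RNA per cell cannot be told apart, and the part of cell makeup and depth in the likeness of the clock genes was not tested.

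**Figure D5:**
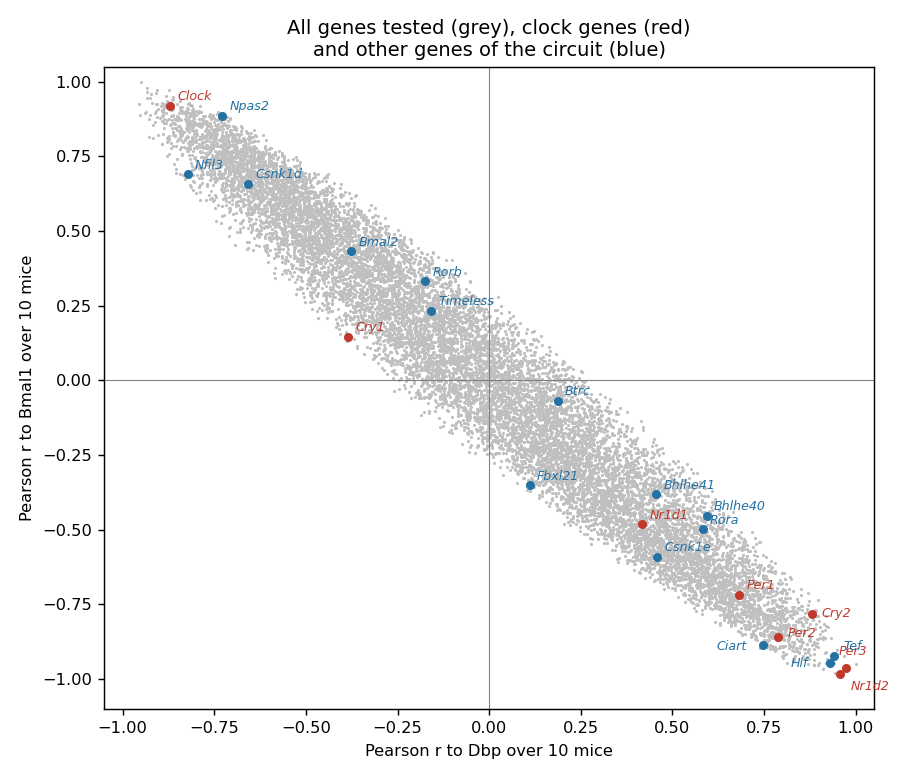
Each of the genes tested placed by its Pearson's r to Dbp (horizontal axis) and to Bmal1 (vertical axis) over 10 mice, with genotype means removed (all genes grey, core clock genes red, other genes of the circuit blue). Clock and Npas2 lie at the top left and Per3, Nr1d2, Tef and Hlf at the bottom right end of the cloud, which runs along the diagonal because r of Dbp to Bmal1 is -0.95.

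The other genes of the circuit described here were 15 in number, all of which passed the filter. They comprise further activators (Npas2, Bmal2), the ROR receptors that switch Bmal1 on (Rora, Rorb), the E-box repressors DEC1 and DEC2 (Bhlhe40, Bhlhe41) and CHRONO (Ciart), the D-box factors (Tef, Hlf and their opponent Nfil3), the kinases and ubiquitin ligase subunits that set PER and CRY turnover (Csnk1d, Csnk1e, Fbxl21, Btrc), and Timeless. With edgeR, 0 of the 15 had an adjusted p under 0.05 and 4 had an unadjusted p under 0.05, with 6 estimates above 0 and 9 below (median log2 fold change -0.13). DESeq2, which gave no adjusted p for Fbxl21, called 2. Over all genes tested, 21.6% had an unadjusted p under 0.05 and DESeq2 called 10.1%.

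Bhlhe41 was the only 1 of the 15 whose genotypes did not overlap, a share close to the 6.62% of all genes. It stood at 30.0, 35.0, 34.3, 32.3 and 35.5 CPM in MLPKO and 23.5, 27.5, 21.6, 28.5 and 29.6 CPM in cRADΔ/Δ-MLPKO, a log2 fold change of -0.35 ± 0.09 (SE) with an adjusted p of 0.0602 in edgeR and 0.0114 in DESeq2. Its paralog Bhlhe40 had a mean of 74.4 ± 4.12 CPM in MLPKO and 59.8 ± 9.98 CPM in cRADΔ/Δ-MLPKO (SD, n = 5 each), with a log2 fold change of -0.31 ± 0.10 (SE, edgeR adjusted p = 0.11). Every MLPKO mouse but mice 1 and 2 lay above every cRADΔ/Δ-MLPKO mouse for Bhlhe40. Csnk1e, which encodes casein kinase 1 epsilon, stood at 30.8, 28.7, 31.8, 31.7 and 27.0 CPM in MLPKO and 31.7, 34.6, 37.6, 37.3 and 35.3 CPM in cRADΔ/Δ-MLPKO (log2 fold change 0.24 ± 0.07 (SE), adjusted p 0.0759 in edgeR and 0.0313 in DESeq2). Rorb had a log2 fold change of -0.55 ± 0.22 (SE, edgeR adjusted p = 0.176) at a level of 1.42 to 3.62 CPM.

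The remaining 11 genes of this circuit had unadjusted p values above 0.05. Npas2, which can stand in for CLOCK, varied more between mice than Bmal1, from 1.6 to 9.66 CPM, with a log2 fold change of 0.07 ± 0.44 (SE, edgeR adjusted p = 0.949) and r = 0.89 to Bmal1. Tef (90.5 to 189 CPM) and Hlf (7.67 to 34.1 CPM) had r of 0.94 and 0.93 to Dbp, and Nfil3, which competes with DBP for D-boxes, had r = -0.82 to Dbp.

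Of 8 genes known to follow the clock in heart or in many tissues, 1 rose and 0 fell by the edgeR test, 2 had an unadjusted p under 0.05 and DESeq2 called 1, beside 0.944%, 1.8%, 21.6% and 10.1% of all genes. Kcnip2 encodes KChIP2, the subunit of the transient outward potassium current that KLF15 is known to put under clock control, and stood at 88.8, 76.2, 136, 126 and 85.8 CPM in MLPKO and at 152, 227, 159, 179 and 180 CPM in cRADΔ/Δ-MLPKO. Every cRADΔ/Δ-MLPKO mouse lay above all MLPKO mice, and the genotypes did not overlap for 6.62% of all genes. For Kcnip2 the log2 fold change was 0.81 ± 0.17 (SE), with an adjusted p of 0.0307 in edgeR and 0.000158 in DESeq2. With the mouse number as a block, although equal numbers belong to different animals, its edgeR adjusted p was 0.0523.

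With 1 mouse left out, Kcnip2 kept an edgeR adjusted p under 0.05 in 4 of 10 fits, and its log2 fold change stayed between 0.71 and 0.94. Kcnip2 lost the call without MLPKO mouse 1 or 5 or cRADΔ/Δ-MLPKO mouse 2, 3, 4 or 5 (edgeR adjusted p 0.0578 to 0.0794). In those fits edgeR called 50 to 142 of all genes tested, against 369 with all mice.

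The other 7 genes of that list did not pass the test, and the groups of all 7 overlapped. Klf15 itself had 40.9 ± 4.77 CPM in MLPKO and 47.2 ± 5.36 CPM in cRADΔ/Δ-MLPKO (SD, n = 5 each; log2 fold change 0.21 ± 0.09 (SE), edgeR adjusted p = 0.226). Nampt, the enzyme of NAD salvage, had a log2 fold change of 0.39 ± 0.21 (SE, edgeR adjusted p = 0.318). Usp2, a ubiquitin protease with a strong rhythm, stood between 77.7 and 125 CPM with a log2 fold change of -0.02 ± 0.14 (SE, edgeR adjusted p = 0.96), and had r = 0.91 to Dbp.

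Markers of cell types were counted beside these values, where edgeR called 2.74% of all genes, DESeq2 called 10.1% and 21.6% had an unadjusted p under 0.05. Of 6 cardiomyocyte markers, edgeR called 1, Tnnt2, which was lower in cRADΔ/Δ-MLPKO, DESeq2 called 3 and 3 had an unadjusted p under 0.05. The sum of the 6 ran from 48100 to 55900 CPM in MLPKO and from 36100 to 47700 CPM in cRADΔ/Δ-MLPKO. That sum was mostly Myh6, with a mean of 36500 CPM in MLPKO and 29890 CPM in cRADΔ/Δ-MLPKO. Of the 6 estimates, 5 were below 0, and that of Tnni3 was above 0 (log2 fold change 0.13, edgeR adjusted p = 0.421). Of 5 endothelial markers, edgeR called 1, Tek, which was higher in cRADΔ/Δ-MLPKO, DESeq2 called 2 and all 5 had an unadjusted p under 0.05, with sums of 602 to 690 and 714 to 824 CPM. Of 6 macrophage markers 0 were called by edgeR, although all 6 were higher with an unadjusted p under 0.05 and DESeq2 called 2, with sums of 112 to 157 and 137 to 237 CPM, and of 6 fibroblast markers 0 were called by edgeR or DESeq2 and 0 had an unadjusted p under 0.05, with sums of 920 to 1370 and 756 to 1370 CPM. Of the 3 smooth muscle markers that passed the filter, out of 4, edgeR called 1, Acta2, which was higher in cRADΔ/Δ-MLPKO, with sums of 73.6 to 208 and 124 to 273 CPM. The list did not move as 1, since the log2 fold change was 0.01 for Myh11 and -2.17 for Cnn1 (edgeR adjusted p = 0.988 and 0.103). For Cnn1, MLPKO mouse 2 stood at 54.4 CPM, the other MLPKO mice at 4.39 to 8.27 CPM and the cRADΔ/Δ-MLPKO mice at 2.08 to 5.81 CPM. Adipocyte markers stood at 0 to 0.127 CPM in MLPKO, at 0 to 0.178 CPM in 4 cRADΔ/Δ-MLPKO mice and at 14.9 CPM in cRADΔ/Δ-MLPKO mouse 3, the mouse with the lowest Dbp. Lymphocyte markers stayed at or below 3.82 CPM and skeletal muscle markers at or below 2.61 CPM in every mouse. The part of cell makeup in the difference of Kcnip2 was not tested.

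Genes that respond to the systemic cues which can shift the clock did not pass the test either. Of 11 genes induced by glucocorticoids, 0 had an edgeR adjusted p under 0.05, and the smallest was that of the metallothionein gene Mt1, at 40.1, 19.3, 44.3, 40.7 and 33.2 CPM in MLPKO and 63.5, 42.4, 89.7, 70.3 and 62.1 CPM in cRADΔ/Δ-MLPKO (log2 fold change 0.88 ± 0.22 (SE), edgeR adjusted p = 0.0574, and 0.0105 with the mouse number as a block). Equal mouse numbers, used as that block, belong to different animals. DESeq2 called Mt1, with an adjusted p of 0.00218. Of 7 genes that follow body temperature, 0 were called by edgeR or DESeq2, and the smallest p was that of Dnajb1 (log2 fold change 0.29 ± 0.16 (SE), edgeR adjusted p = 0.322). Of 6 genes that rise on fasting, 0 were called by edgeR or DESeq2 although all 6 estimates were above 0, and the smallest p was that of Pdk4, at 440, 439, 466, 307 and 347 CPM in MLPKO and 762, 196, 673, 784 and 321 CPM in cRADΔ/Δ-MLPKO (log2 fold change 0.45 ± 0.32 (SE), edgeR adjusted p = 0.45). In these temperature and fasting lists, 0 genes had an unadjusted p under 0.05, and 1 of the glucocorticoid genes did, beside 21.6% of all genes. Over all genes edgeR called 2.74% and DESeq2 10.1%.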

How the data were processed

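Gene counts were measured in 10 libraries, 5 per genotype. Per the labels and methods, STAR mapped the reads to GRCm39 and featureCounts assigned them to genes, and the counts were deposited by the authors without normalization. Settings for strand and shared reads are not given in the sources used here. Of 60676 rows, 3491 without values were left out. Between 1 and 20, at least 73.7% of counts were even in every library, so a fragment may have been counted by both of its reads, which was not tested and would make the number of fragments lower than the counts.

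The filter kept genes whose count exceeded 10 in 6 or more mice without Gm and Rik genes, 13451 in all. They were scaled by TMM and compared with the edgeR 4.0.16 quasi-likelihood test in R 4.3.3, with Benjamini-Hochberg adjustment over all genes. CPM are counts per 1000000 of the TMM-scaled library total over these genes, and log2 CPM used a prior count of 2. On simulated counts of these 13451 genes with 200 changed, edgeR recovered 86.5% of them with 1 false call. Every change set there was larger than any clock gene estimate, the largest of which was a log2 fold change of 0.217 in size. The simulation therefore does not show how often changes of that size would be called. DESeq2 1.42.0, limma-voom (limma 3.58.1), other scalings and filters, a replicate block and leaving out each mouse were alternatives. Figures and descriptions used Python 3.11.15.

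The clock genes and the lists were chosen with earlier results of these data known. The genes named are the 10 clock genes, 15 other circuit genes, the genes of other lists that passed the test or had the smallest p, the 10 genes most like Dbp or Bmal1 and genes that overlap a clock gene. Klf15, Nampt and Usp2, and the cell type markers named with a call or with values of their own, were added after their values were seen. Labels do not say whether mice were littermates, and equal mouse numbers belong to different animals, so they were not used as pairs. Some listed genes are not reported here and stay out of the counts over their lists.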

Additional observations from a re-analysis of the deposited data

Results flagged for a closer look

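Npas2 in cRADΔ/Δ-MLPKO mouse 1 stood at 9.665 CPM, apart from the other 4 mice of its genotype, which had 3.57, 4.51, 3.43 and 3.30 CPM. Its gap to the nearest of them was 0.811 of the range of the group, above the limit of 0.71 for 5 samples. It was the only 1 of 58 groups looked at, from 29 genes in both genotypes, and chance flags about 1 in 20 such groups. Bmal1 in the same mouse stood at 16.5 CPM, the highest value of its genotype. Without this mouse the log2 fold change of Npas2 went from 0.07 to -0.33.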

How the results depend on the processing

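No clock gene was called under any alternative. The 80 log2 fold changes of the 10 genes under the 8 settings that kept all mice held their direction, with adjusted p from 0.549 to 0.993, and 86 of 100 did so with 1 mouse left out, with a lowest adjusted p of 0.307. Leaving out 1 mouse at a time turned the sign of 8 clock genes, with log2 fold changes from -0.093 to 0.37 for Bmal1, -0.042 to 0.077 for Clock, -0.23 to 0.24 for Per1, -0.342 to 0.052 for Per2, -0.22 to 0.16 for Per3, -0.39 to 0.10 for Dbp, -0.121 to 0.002 for Nr1d1 and -0.009 to 0.229 for Nr1d2. For Bmal1, Clock, Per2, Per3 and Dbp the sign turned without MLPKO mouse 4. With 1 mouse left out the sign also turned for Npas2 (-0.33 to 0.35), Ciart (-0.33 to 0.27), Hlf (-0.23 to 0.31), Nfil3 (-0.08 to 0.17) and Timeless (-0.017 to 0.222). With limma-voom the log2 fold change was 0.01 for Ciart and 0.071 for Hlf, and with the replicate block it was 0.057 for Hlf.

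Over all genes, 369 were called by edgeR, 1298 by DESeq2 and 168 when a log2 fold change of 0.5 was required as well. With 1 mouse left out the count ran from 50, without cRADΔ/Δ-MLPKO mouse 5, to 826, without MLPKO mouse 4, and was within 1.5 times the full count in 3 of 10 fits. DESeq2 called 2 of the other circuit genes (Bhlhe41 and Csnk1e) and 1 glucocorticoid gene. Mouse numbers are shared by the genotypes, but same-numbered mice did not deviate together (r = 0.025, 0.0672, 0.0969, 0.152 and -0.0423). A fit with the replicate block called 281 genes, 0 clock genes, 0 of the 8 genes that follow the clock (1 without the block) and 1 glucocorticoid gene. With 1 mouse left out, 0 to 1 of the genes that follow the clock, 0 to 1 glucocorticoid genes (Mt1, without MLPKO mouse 2 or 4) and 0 genes of the other circuit, temperature and fasting lists were called. The r of Dbp to Bmal1 stayed between -0.979 and -0.934. The cause of these changes was not tested. Each clock gene had 88 to 5435 counts in a library, and the effect of depth on the intervals was not tested.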
